A study of Mus musculus with 12 samples.

Results

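The interferon response genes described here are 41 mouse genes that cells switch on when interferons bind their receptors. They were chosen by name, where the gene name of a spot or the symbol of its Entrez number equals a member, and all 41 were on the array, with 65 spots, among 26228 genes named there. RNA from whole tissue of female B6C3F1/Nctr mice was hybridised to 12 one-colour arrays in 4 groups of 3, namely lung with acrylamide at 0.7 mM, untreated lung, liver with acrylamide at 0.7 mM and untreated liver. All groups share strain and sex, and the labels used here state neither the age of the mice nor how or for how long they were exposed. Arrays are named by tissue, treatment and the number in the title. Acrylamide is a small reactive amide, and the series asked what exposure to it does in these tissues.

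The tissue entry of all 12 arrays and the series' design text say liver, whereas titles and source names say lung for 6 arrays. Hepatocyte genes were lower in untreated lung for 12 of 12 genes (median difference -9.27 log2 units) and alveolar type 2 genes were higher for 10 of 10 (median 8.84), so the titles were followed. Lung arrays were brighter, with a 75th percentile of 942.7 to 1548 intensity units, against 329.6 to 704.8 on liver arrays. Liver acrylamide 30 had the lowest percentile and a background limit, set at the 95th percentile over negative controls, of 16.8, against 2.35 to 4.45 on the other arrays. Of the members, 40 were above background on all 12 arrays, and Oas3 was above it on 11, liver acrylamide 30 being the exception. All 41 were tested in every comparison.

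Type I interferons signal through the receptor chains Ifnar1 and Ifnar2 and the kinases Jak1 and Tyk2 to a transcription factor complex that holds Stat2 and Irf9 and binds the interferon-stimulated response element in the promoters of its target genes. Interferon gamma signals through its own receptor to factors that bind gamma-activated sites. The targets sense, cut or trap viral RNA and proteins, attack vacuoles that hold bacteria or parasites, load peptides for T cells and feed back on the pathway. Low levels of these genes are present in uninfected tissue, in epithelial cells, hepatocytes and resident macrophages among others.

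The promoters of 5 members are shown because they carry the response element in different arrangements, or, in Cmpk2, the member with the smallest p in lung, do not carry it in this window. Each line gives 250 bases before to 50 bases after an annotated start of transcription, from RefSeq with GRCm38.p6 coordinates, read 5′ to 3′ on the gene's own strand. For Cmpk2 the start used lies inside the gene's span, which begins at 26469117, so fewer than 250 bases before the span were searched. Capitals mark the core GAAANNGAAA, or TTTCNNTTTC where it lies on the other strand.
Isg15 (chr4:156200769-156201068, minus strand): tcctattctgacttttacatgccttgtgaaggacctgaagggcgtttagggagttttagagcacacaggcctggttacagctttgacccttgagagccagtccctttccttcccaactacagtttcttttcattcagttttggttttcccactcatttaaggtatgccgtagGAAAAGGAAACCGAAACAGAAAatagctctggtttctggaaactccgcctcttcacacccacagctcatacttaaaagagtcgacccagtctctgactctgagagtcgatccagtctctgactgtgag
Ifit1 (chr19:34640639-34640938, plus strand): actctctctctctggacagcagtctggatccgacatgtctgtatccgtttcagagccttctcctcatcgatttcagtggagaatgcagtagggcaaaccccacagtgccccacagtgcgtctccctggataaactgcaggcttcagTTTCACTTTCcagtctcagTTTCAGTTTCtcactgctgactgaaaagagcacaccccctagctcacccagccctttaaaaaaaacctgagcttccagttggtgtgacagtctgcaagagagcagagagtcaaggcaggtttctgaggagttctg
Irgm1 (chr11:48871371-48871670, minus strand): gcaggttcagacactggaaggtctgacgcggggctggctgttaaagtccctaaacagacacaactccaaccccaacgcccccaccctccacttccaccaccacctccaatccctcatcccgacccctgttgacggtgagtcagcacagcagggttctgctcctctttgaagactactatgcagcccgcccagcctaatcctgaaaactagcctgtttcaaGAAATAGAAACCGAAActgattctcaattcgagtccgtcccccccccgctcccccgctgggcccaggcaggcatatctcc
Gbp2 (chr3:142620413-142620712, plus strand): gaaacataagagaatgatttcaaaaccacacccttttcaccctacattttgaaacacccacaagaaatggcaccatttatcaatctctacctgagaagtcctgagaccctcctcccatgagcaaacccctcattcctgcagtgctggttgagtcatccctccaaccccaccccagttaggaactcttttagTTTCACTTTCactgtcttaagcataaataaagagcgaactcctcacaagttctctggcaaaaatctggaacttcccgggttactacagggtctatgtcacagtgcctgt
Cmpk2 (chr12:26468965-26469264, plus strand): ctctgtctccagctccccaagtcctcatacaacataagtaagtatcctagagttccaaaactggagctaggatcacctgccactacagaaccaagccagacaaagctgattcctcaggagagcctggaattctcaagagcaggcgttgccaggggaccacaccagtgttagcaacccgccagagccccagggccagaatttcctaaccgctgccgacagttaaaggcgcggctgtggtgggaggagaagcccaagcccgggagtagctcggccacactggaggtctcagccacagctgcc
In Isg15, which encodes a ubiquitin-like protein, 3 copies overlap by 4 letters each, the first beginning at position -78 and the last at -66, counted from the start. Ifit1, an RNA-binding protein, holds 2 separate copies, at -104 and -85. Irgm1, an immunity-related GTPase, holds 2 overlapping copies, at -30 and -24, and Gbp2, a guanylate-binding protein, holds 1 at -59.

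RefSeq promoters were matched for 28 of the 41 members, and for some, Cmpk2 among them, the start used lay inside the gene's span. The core, searched on both strands with overlaps counted, stood in the promoters of 15 of these 28 (53.6%) and of 3.99% of all 27025 genes with promoters in the table. The gamma-activated site TTCNNNGAA, which reads the same on both strands and can overlap the core, stood in 7 of the 28 (25%) and in 9.55% of all genes. A match is a description of letters in a window of 300 bases and not a shown binding site. By this split, the difference between acrylamide-treated and untreated lung was negative for 12 of the 15 members with the core (median -0.16 log2 units) and for 11 of the 13 without it (median -0.18). The corresponding counts in liver were 6 of 15 (median 0.03) and 8 of 13 (median -0.03).

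**Figure D1:**
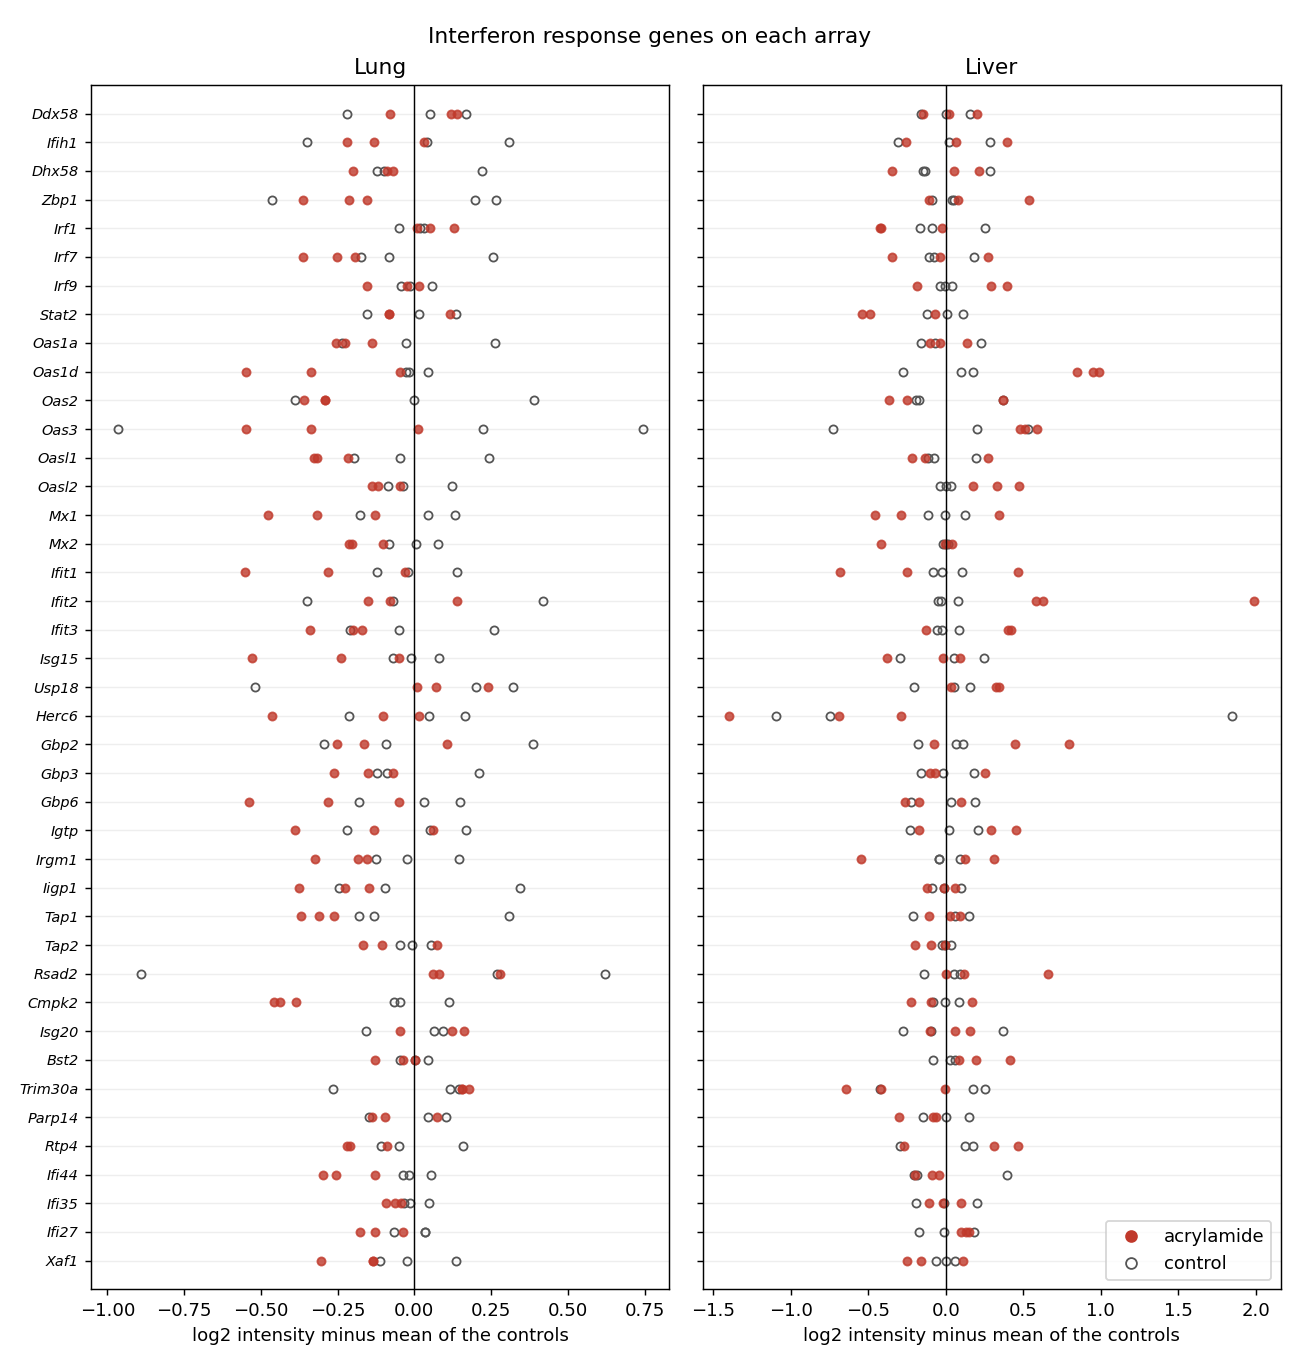
Log2 intensity of each of the 41 members on each array minus the mean of the 3 control arrays of the same tissue, for lung (left) and liver (right). Filled points are acrylamide arrays and open points control arrays. In lung 10 members have every acrylamide point left of every control point, and in liver Oas1d and Ifit2 have their acrylamide points furthest to the right.

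In lung, acrylamide was followed by differences in the interferon response genes that were small and mostly negative, and none passed the test. The quantity throughout is log2 intensity relative to the array's 75th percentile, and a difference is acrylamide minus control in log2 units. At a Benjamini-Hochberg adjusted p under 0.05 in limma, 0 of 41 members were called, as were 0% of the 22226 genes tested, and the smallest adjusted p of a member was 0.941. At an unadjusted p under 0.05, 1 member (Cmpk2) passed, or 2.44% of the members, against 4.92% of all genes. The difference was negative for 35 of 41 members, against 51.6% of all genes, and its median was -0.18 (quartiles -0.27 and -0.06), against -0.01 for all genes. A median of -0.18 is a level 11.7% lower. The 3 acrylamide arrays lay below all 3 controls for 10 members (24.4%), which were Cmpk2, Ifi35, Ifi44, Irf7, Irgm1, Mx2, Oas1d, Oasl1, Tap1 and Xaf1, against 6.74% of all genes. They lay above all 3 controls for 1 member, Trim30a, against 4.15% of all genes. Members of 1 pathway on the same 6 arrays are not independent of each other, and in whole tissue fewer cells of a type and less RNA per cell cannot be told apart.

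The shift was present on each lung acrylamide array and was of the same order as the spread among controls. Over the 41 members, the median difference from the mean of the controls was -0.19 on acrylamide 28, -0.14 on acrylamide 29 and -0.09 on acrylamide 30, against -0.05 on control 4, -0.03 on control 5 and 0.11 on control 6. Control 6 was thus above the other untreated arrays, and it was the highest of the 6 arrays for 22 of 41 members, against 27.3% of all genes. Without control 6 the median of the members was -0.10 with 32 negative differences. Each title opens with a code whose numbers were taken here as slide, row and position, which the labels do not spell out. Within slide rows read this way the median of the members was -0.10 in row 1 and -0.17 in row 2. In each slide row 1 of the groups has only 1 array. Acrylamide 28 was the lowest array for 12 members, acrylamide 29 for 7 and acrylamide 30 for 8, against 12.3%, 12.7% and 15.8% of all genes. Control 4 was the lowest for 8 members, control 5 for 3 and control 6 for 3, against 27.7%, 14.4% and 17% of all genes.

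**Figure D2:**
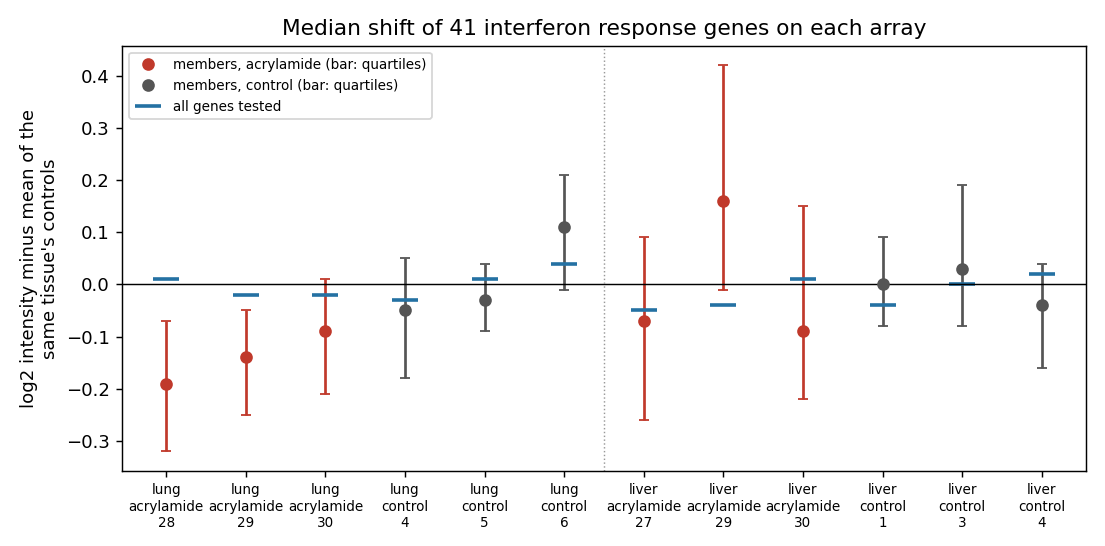
Median over the 41 members of log2 intensity minus the mean of the same tissue's 3 controls, on each of the 12 arrays, with bars from the lower to the upper quartile of the members and blue dashes for the median of all genes tested. The lung acrylamide medians lie at -0.19, -0.14 and -0.09, whereas the liver acrylamide medians lie on both sides of 0, with acrylamide 29 at 0.16.

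The sensors of foreign nucleic acid gave differences in lung within the spread of the controls. Ddx58, which encodes the viral RNA sensor RIG-I, read 1.94, 1.74 and 1.96 on acrylamide arrays 28, 29 and 30, against 1.60, 1.99 and 1.87 on controls 4, 5 and 6, and the difference was 0.06 ± 0.14 (SE, n = 3 each). The groups overlapped, and control 4 was the lowest of the 6. The differences of Ifih1, a sensor of long double-stranded RNA, of Dhx58, which tunes these sensors, and of Zbp1, which binds left-handed nucleic acid, were -0.11, -0.12 and -0.25, and their groups also overlapped.

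Of the transcription factors, Irf7 was the one whose groups did not overlap by the brightest spot of each. Irf7, which drives the amplifying round of interferon production, read 2.39, 2.33 and 2.22 on lung acrylamide arrays, against 2.84, 2.41 and 2.50 on controls. All 3 acrylamide arrays were lower, acrylamide 28 and control 5 being nearest, and the difference was -0.27 ± 0.14 (SE; adjusted p = 0.998). It was -0.10 within slide row 1, -0.34 within row 2 and -0.14 without control 4. Stat2, the subunit that brings an activation domain to the complex with Irf9, read 2.55, 2.35 and 2.35 on acrylamide arrays, against 2.57, 2.45 and 2.28 on controls. These values overlapped fully, at -0.02 ± 0.12. Irf9, the DNA-binding subunit, differed by -0.05 and Irf1, a factor of the interferon gamma response, by 0.07. Dimmer spots of Irf1, Irf7, Irf9 and Stat2, above background on all 12 arrays, gave 0.74, 0.09, -0.12 and -0.24.

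All 6 genes of the OAS family, whose products make the oligoadenylates that activate RNase L or are inactive relatives, had negative differences in lung, from -0.31 to -0.10 with a median of -0.29. Oas2 read 0.14, 0.21 and 0.21 on acrylamide arrays, against 0.89, 0.50 and 0.11 on controls, a difference of -0.31 ± 0.20. Control 6 was the lowest of the 6 arrays here, so the groups overlapped, and the difference was -0.51 without control 6 and -0.12 without control 4. Oas1d, a mouse relative without known enzyme activity, read -4.83, -4.54 and -5.04 on acrylamide arrays, against -4.52, -4.45 and -4.51 on controls, a difference of -0.31 ± 0.14. The groups did not overlap, though acrylamide 29 lay close to control 4. Oasl1, which in mice restrains the translation of Irf7, read -1.28, -1.27 and -1.17 on acrylamide arrays, against -1.0, -1.15 and -0.71 on controls, a difference of -0.28 ± 0.14. Its groups were separate, with control 6 standing highest. The differences of Oas1a, Oas3 and Oasl2 were -0.20, -0.29 and -0.10, all with overlapping groups, and Oas3 was dim in lung and had an SE of 0.44. Within slide row 1 the difference of Oas1d was -0.48, and within row 2 it was -0.03. That of Oasl1 was -0.07 in row 1 and -0.41 in row 2, and -0.16 without control 6.

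The Mx GTPases trap viral ribonucleoproteins, although many inbred mouse strains carry Mx1 alleles without function. Mx1 read -2.79, -2.60 and -2.95 on lung acrylamide arrays, against -2.65, -2.34 and -2.43 on controls, a difference of -0.31 ± 0.14. The groups overlapped through acrylamide 29 and control 4, and the difference was -0.54 within slide row 1 and -0.06 within row 2. Mx2 differed by -0.18 ± 0.09 with separate groups. Of the IFIT family, which bind the ends of viral RNA, Ifit1 read -0.78, -0.51 and -0.26 on acrylamide arrays, against -0.09, -0.25 and -0.35 on controls, a difference of -0.29 ± 0.16. Acrylamide 28 was the lowest and acrylamide 30 lay among the controls, and the difference was -0.16 without acrylamide 28. Ifit2 and Ifit3 differed by -0.03 and -0.24.

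Isg15, the ubiquitin-like modifier, read 1.74, 2.22 and 2.03 on lung acrylamide arrays, against 2.2, 2.35 and 2.26 on controls, a difference of -0.27 ± 0.14. Acrylamide 28 was lowest and acrylamide 29 lay above control 4, so the groups overlapped. The difference of Isg15 was -0.46 within slide row 1, -0.01 within row 2 and -0.14 without acrylamide 28. Usp18, which removes Isg15 from proteins and blocks the type I receptor, read 1.16, 0.99 and 0.93 on acrylamide arrays, against 1.24, 1.12 and 0.40 on controls, a difference of 0.11 ± 0.24 in which control 6 stood lowest. Without control 6 this difference was -0.16. Herc6, the main ligase for Isg15 in mice, differed by -0.18.

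The GTPases that act on vacuoles of bacteria and parasites, and the peptide transporter, had negative differences in lung for 8 of 8 genes. Of the 8, 2 had separate groups with acrylamide lower, against 6.74% of all genes. Gbp2 read 1.15, 1.24 and 1.51 on acrylamide arrays, against 1.11, 1.31 and 1.79 on controls, a difference of -0.10 ± 0.21 with groups that overlapped. Gbp3 and Gbp6 differed by -0.16 and -0.29, and the immunity-related GTPases Igtp, Irgm1 and Iigp1 by -0.16, -0.22 and -0.25, of which Irgm1 had separate groups. Tap1, a subunit of the transporter that carries peptides to MHC class I, read 0.57, 0.63 and 0.68 on acrylamide arrays, against 0.76, 0.81 and 1.25 on controls. All acrylamide arrays were lower, control 6 stood highest, and the difference was -0.31 ± 0.15, or -0.16 without control 6. Tap2, the partner subunit, differed by -0.07. The dimmer spots of Irgm1 gave -0.12 and 0.07, that of Tap1 gave 0.11 and that of Tap2 gave 0.28.

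Among the other effectors, Cmpk2 had the smallest p of all members in lung. Cmpk2, a mitochondrial nucleotide kinase, read -0.57, -0.52 and -0.59 on acrylamide arrays, against -0.02, -0.18 and -0.20 on controls. The acrylamide arrays lay close together and below every control, and the difference was -0.42 ± 0.09 (SE; adjusted p = 0.941), a level 1.34-fold lower. It was -0.40 within slide row 1 and -0.41 within row 2, and -0.46 to -0.37 when any 1 array was left out. Rsad2, which encodes viperin, an enzyme that makes a chain-terminating nucleotide, neighbours Cmpk2 on chromosome 12 (GRCm38.p6; Rsad2 at 26442743 to 26456452, Cmpk2 at 26469117 to 26479837). Its difference was 0.14 ± 0.39, with control 4 at -1.94 and the other 5 lung arrays between -0.99 and -0.43.

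Ifi44, an interferon-induced protein of unsettled function, read -1.18, -1.22 and -1.05 on lung acrylamide arrays, against -0.87, -0.94 and -0.96 on controls. Its groups were separate at a difference of -0.23 ± 0.09. Xaf1, which binds an inhibitor of apoptosis, and Ifi35 also had separate groups, at -0.19 and -0.07. Trim30a, a TRIM protein that dampens inflammatory signalling in mice, had the highest difference by the brightest spot of each member, at 0.17 ± 0.14. It read -0.64, -0.66 and -0.66 on acrylamide arrays, against -0.67, -1.08 and -0.70 on controls, so that acrylamide 29 and 30 nearly touched control 4. Isg20, an RNA exonuclease, differed by 0.08, Bst2, which tethers budding virus to the cell, by -0.06, Parp14, an ADP-ribosyltransferase, by -0.05, Rtp4, a receptor transport protein, by -0.18 and Ifi27, a small mitochondrial protein, by -0.12.

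Markers of other cell types in lung were measured beside these values, and their part in the members' differences was not tested. Macrophage genes were higher on acrylamide arrays for 12 of 14, with a median of 0.28. Their mean level was -0.76 to -0.47 on acrylamide arrays, against -1.09 to -0.69 on controls. C1qc and Cd163 had the smallest p values, at differences of 0.39 and 0.47 log2 units. T and NK cell genes were higher for 7 of 13 (median 0.04), with mean levels of -1.0 to -0.76 on acrylamide arrays, against -1.43 to -0.48 on controls. Plasmacytoid dendritic cell genes, a list that includes the member Bst2, were higher for 4 of 8 (median 0.02). B cell genes were lower for 7 of 9 (median -0.09). Their mean levels were -2.67 to -2.47 on acrylamide arrays, inside the range of controls, -3.22 to -1.84. Neutrophil genes were lower for 6 of 9 (median -0.14), with mean levels of -1.33 to -1.24, against -1.23 to -0.84 on controls. Alveolar type 2 genes were lower for 10 of 10 (median -0.09). Hepatocyte genes were higher for 12 of 12 (median 0.33), with mean levels of -1.38 to -0.43 on acrylamide arrays, against -1.53 to -0.53 on controls. None of these genes passed the adjusted test.

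In liver, the interferon response genes showed no shared direction, and the highest differences belonged to Ifit2 and Oas1d. At an adjusted p under 0.05, 0 of 41 members were called, as were 0% of the 21076 genes tested, and the smallest adjusted p of a member was 0.645, that of Oas1d. At an unadjusted p under 0.05, 2 members passed (Ifit2 and Oas1d), or 4.88%, against 6.08% of all genes. The difference was negative for 22 of 41 members, against 53% of all genes, and its median was -0.01, against -0.02 for all genes. The acrylamide arrays lay above all controls for 4 members (Bst2, Ifit2, Oas1d and Oasl2), against 5.69% of all genes, and below all controls for 0, against 6.71%.

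The 3 treated liver arrays differed from each other. The median of the members relative to the mean of the controls was -0.07 on acrylamide 27, 0.16 on acrylamide 29 and -0.09 on acrylamide 30, against 0.00 on control 1, 0.03 on control 3 and -0.04 on control 4. Acrylamide 29 was the highest of the 6 arrays for 17 members, whereas 13.4% of all genes were highest there. Within slide row 1, which holds acrylamide 27 and 30 and controls 1 and 3, the median was -0.10 with 26 negative differences, and within row 2, which holds acrylamide 29 and control 4, it was 0.34 with 8.

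Oas1d read -1.67, -1.71 and -1.81 on liver acrylamide arrays 27, 29 and 30, against -2.56, -2.93 and -2.48 on controls 1, 3 and 4. The treated arrays lay close together and above every control, and the difference was 0.93 ± 0.17 (SE, n = 3 each), a level 1.90-fold higher that did not pass the adjusted test. It was 1.0 within slide row 1 and 0.77 within row 2. Ifit2 read -3.36, -3.31 and -1.95 on acrylamide arrays, against -3.97, -3.99 and -3.86 on controls, a difference of 1.07 ± 0.39. Acrylamide 30, the dim array, stood well above the other 2 treated arrays, and without it the difference was 0.61. Within slide rows it was 1.33 in row 1 and 0.56 in row 2.

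Oasl2 read -0.73, -0.59 and -0.89 on liver acrylamide arrays, against -1.06, -1.03 and -1.1 on controls, a difference of 0.33 ± 0.14 with separate groups. Bst2 read 5.41, 5.52 and 5.74 on acrylamide arrays, against 5.38, 5.24 and 5.35 on controls, a difference of 0.24 ± 0.15, or 0.14 without acrylamide 30, in which acrylamide 27 and control 1 were nearest. The remaining OAS genes differed by between -0.09 (Oas2) and 0.52 (Oas3, the member not above background on acrylamide 30). Oas2 itself read 0.13, 0.24 and 0.86 on acrylamide arrays, against 0.30, 0.86 and 0.32 on controls, with 1 high array in each group.

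**Figure D3:**
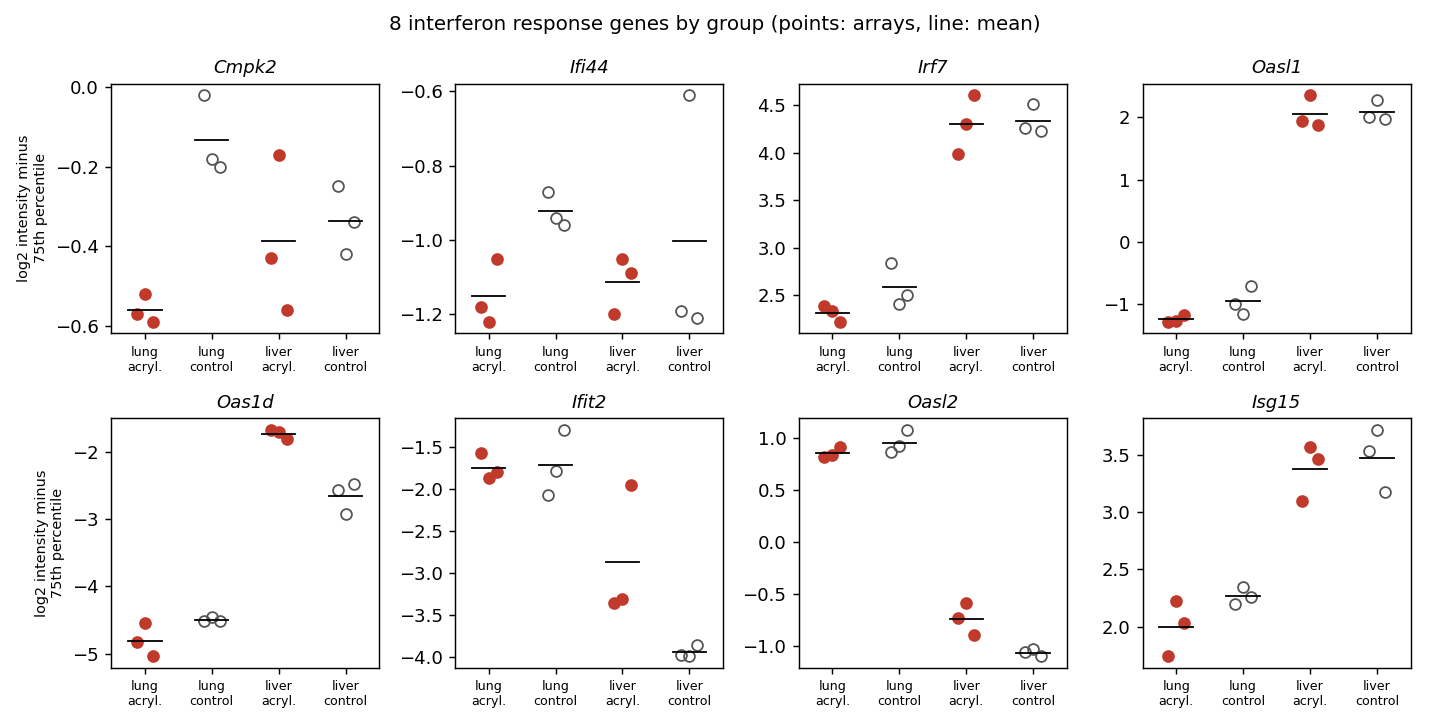
Log2 intensity minus the array's 75th percentile of 8 members on each array, by group, with a line at the group mean; filled points are acrylamide arrays and open points controls. Cmpk2 and Ifi44 are lower on all 3 acrylamide arrays in lung, Oas1d is higher on all 3 in liver, and Ifit2 has 1 high acrylamide array in liver.

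Stat2 had the lowest p in liver among members with a negative difference. It read 3.49, 3.44 and 3.91 on acrylamide arrays, against 3.86, 4.09 and 3.99 on controls, a difference of -0.37 ± 0.18. The groups overlapped through acrylamide 30 and control 1. Irf7 read 3.99, 4.30 and 4.61 on acrylamide arrays, against 4.26, 4.52 and 4.23 on controls, which differed by -0.04 ± 0.20, with the treated arrays on both sides of the controls. Irf1 differed by -0.29, or by 0.47 at its dimmer spot, and Irf9 by 0.17, or by -0.05 at its dimmer spot. The dimmer spots of Stat2 and Irf7 gave 0.2 and 0.26.

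Isg15 in liver read 3.10, 3.57 and 3.46 on acrylamide arrays, against 3.53, 3.72 and 3.18 on controls, a difference of -0.10 ± 0.21. Usp18 read 1.04, 1.33 and 1.35 on acrylamide arrays, against 1.06, 1.16 and 0.80 on controls, a difference of 0.23 ± 0.17. Both pairs of groups overlapped. Herc6 had the lowest difference of all members in liver, -0.80 ± 0.80, which rests on control 1 at -0.49, the other 5 liver arrays lying between -3.73 and -2.62.

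Mx1 read -2.66, -1.86 and -2.49 on liver acrylamide arrays, against -2.08, -2.21 and -2.32 on controls (-0.13 ± 0.24), and Mx2 differed by -0.12. Ifit1 read -0.15, 0.57 and -0.58 on acrylamide arrays, against 0.08, 0.21 and 0.02 on controls (-0.16 ± 0.30), and Ifit3 differed by 0.23. In both Mx1 and Ifit1, acrylamide 29 was the highest array of the tissue and another treated array the lowest. Ddx58 read 2.27, 2.45 and 2.10 on acrylamide arrays, against 2.09, 2.25 and 2.4 on controls (0.02 ± 0.16). The other sensors differed by -0.03 (Dhx58), 0.07 (Ifih1) and 0.17 (Zbp1).

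Gbp2 in liver read -0.91, -0.56 and -1.43 on acrylamide arrays, against -1.24, -1.53 and -1.29 on controls, a difference of 0.39 ± 0.25 with acrylamide 30 among the controls, or 0.62 without acrylamide 30 and 0.18 without acrylamide 29. Tap1 read 0.80, 0.74 and 0.60 on acrylamide arrays, against 0.86, 0.50 and 0.77 on controls, at 0.00 ± 0.15. Gbp3, Gbp6, Igtp, Irgm1, Iigp1 and Tap2 differed by between -0.12 and 0.19 with overlapping groups. The effectors not yet named differed by between -0.36 (Trim30a) and 0.26 (Rsad2), and Cmpk2, which had the smallest p in lung, differed by -0.05 ± 0.15.

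In liver, macrophage genes were higher on acrylamide arrays for 13 of 14, with a median of 0.37. Their mean levels were 1.61 to 1.91 on acrylamide arrays, against 1.06 to 1.52 on controls. Adgre1 and Cd5l had the smallest p values, at differences of 0.69 and 0.43 log2 units. T and NK cell genes were lower for 9 of 11 tested (median -0.21), B cell genes for 7 of 8 (median -0.63) and neutrophil genes for 5 of 8 (median -0.21). Hepatocyte genes were lower for 10 of 12 (median -0.14). Of 10 alveolar type 2 genes 8 were tested in liver, of which 6 were higher on acrylamide arrays and 2 lower (median 0.56), with mean levels of -2.31 to -0.88 on acrylamide arrays, against -2.71 to -2.35 on controls. Nkx2-1 was not above background in either liver group, and Sftpb was not in controls. None of these genes passed the adjusted test. The surfactant genes Sftpc and Sftpa1 had the smallest p values of this list, at differences of 5.26 ± 1.97 and 1.5 ± 0.67. By contrast, Abca3 (-0.09) and Slc34a2 (-0.15) had negative differences, though Slc34a2 was not above background on acrylamide 27, acrylamide 30 and control 3. Sftpc was not above background on liver acrylamide 30 and liver control 1. It read 2.44, -0.83 and -5.76 on liver acrylamide arrays 27, 29 and 30, against -7.62, -6.01 and -6.31 on controls, and 8.06 to 8.62 on lung arrays. Lung RNA on the liver acrylamide arrays was not tested as a source of this signal, nor was the part of any of these cell type signals in the members' differences.

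The acrylamide effect was then compared between the tissues as the difference in lung minus the difference in liver. At an adjusted p under 0.05, 0 of 41 members were called, as were 0% of the 23283 genes tested. At an unadjusted p under 0.05, 3 members passed (Ifit2, Oas1d and Oasl2), or 7.32%, against 4.45% of all genes. The value was negative for 33 of 41 members, against 50.3% of all genes, with a median of -0.18, against 0.00 for all genes. For Oas1d it was -1.24 ± 0.22 (SE; adjusted p = 0.728), for Ifit2 -1.1 ± 0.49 and for Oasl2 -0.42 ± 0.16 (adjusted p = 0.993 for both). Without liver acrylamide 30 the value of Ifit2 was -0.64. With arrays weighted by their quality, 1 member, Oas1d, was called at -1.18 (adjusted p = 0.043). In that setting liver acrylamide 29 had a weight of 4.479 and liver acrylamide 30 a weight of 0.147. The share of all genes called in that setting is not given here. In the main fit no difference of the acrylamide effect between the tissues was shown for any member.

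Without acrylamide, lung and liver held most of these genes at different levels. Between untreated lung and untreated liver, in a fit over all 12 arrays, 26 of 41 members (63.4%) passed the adjusted test, against 73.3% of all genes. Of these, 18 were lower in lung (43.9% of the members), against 42.6% of all genes, and 8 were higher (19.5%), against 30.7%. The members' shares were thus close to or below those of all genes. The median of the members was -0.27, and that of all genes was -0.33. The median of all genes moved with the scaling, and was -0.02 under quantile scaling and -0.17 under median scaling. Called with the same sign under all 3 scalings were 21 members, 13 lower and 8 higher in lung. The share of all genes that meet this rule is not given here, so the count says nothing about the members as a set. The calls of Ddx58, Ifih1, Oas3, Trim30a and Ifi27 were lost under another scaling, and Ifi27 changed sign. By this reading of the title codes each tissue has its own slide, and the effect of slide cannot be told apart from that of tissue.

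**Figure D4:**
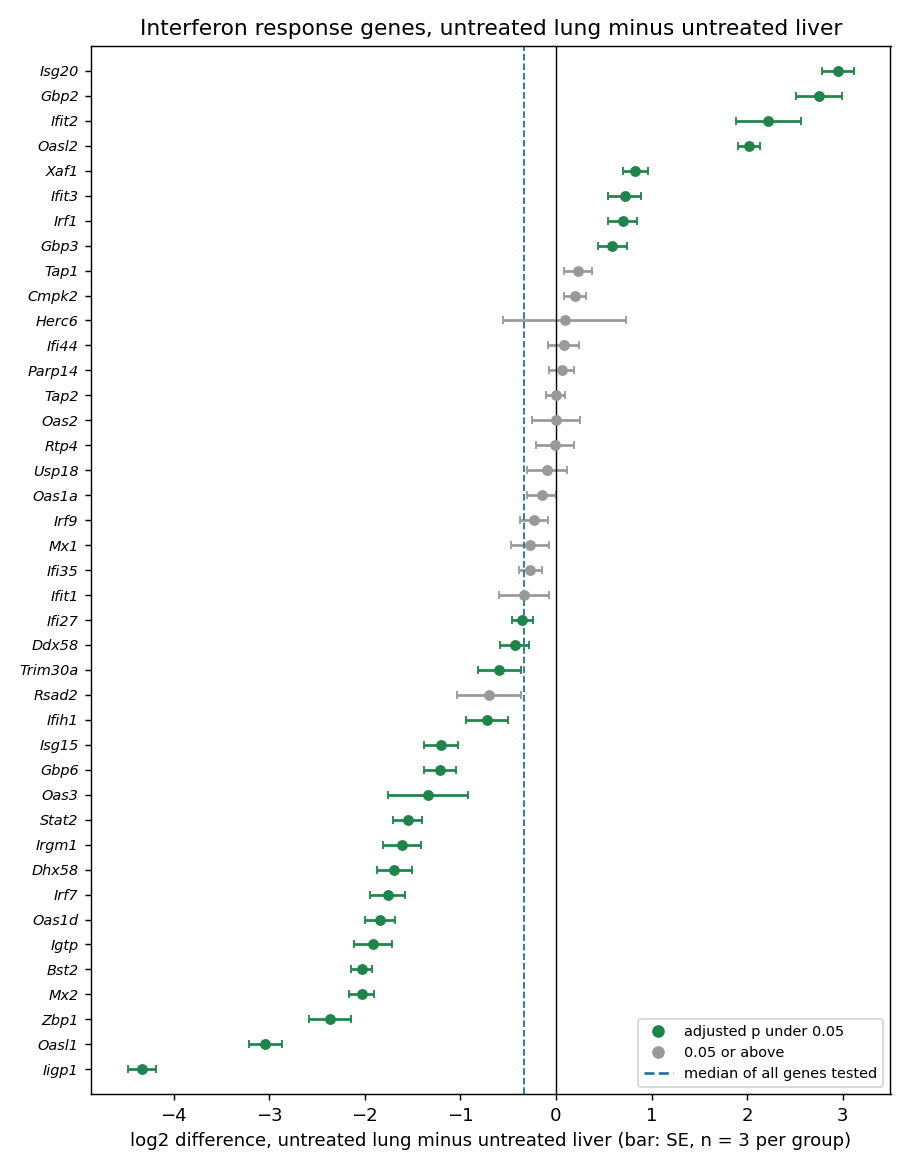
Log2 difference of each member, untreated lung minus untreated liver, with bars of 1 SE (n = 3 arrays per group) and a dashed line at the median of all genes tested, -0.33. Iigp1 and Oasl1 are at the low end (-4.33 and -3.04), Isg20 and Gbp2 at the high end (2.95 and 2.75).

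The immunity-related GTPases were lower in untreated lung for 3 of 3. Iigp1, which coats parasite vacuoles, read 2.06, 2.21 and 2.65 in untreated lung, against 6.54, 6.73 and 6.62 in untreated liver, a difference of -4.33 ± 0.15 (adjusted p = 3.2e-09). No lung array came near a liver array at this spot, the brighter of 2, whereas the other Iigp1 spot, above background on all 12 arrays, gave -1.84. Igtp and Irgm1 were lower as well, at -1.91 and -1.61.

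Oasl1 read -1.0, -1.15 and -0.71 in untreated lung, against 2.01, 2.28 and 1.97 in untreated liver, a difference of -3.04 ± 0.17 (adjusted p = 7.08e-08). Its relative Oasl2 ran the other way, at 0.87, 0.92 and 1.08 in lung, against -1.06, -1.03 and -1.1 in liver (2.02 ± 0.11, adjusted p = 6.96e-08). The genes are neighbours on chromosome 5 (GRCm38.p6; Oasl2 at 114896926 to 114912245, Oasl1 at 114923143 to 114937911). Neither pair of groups overlapped. Oas1d and Oas3 were lower in lung (-1.84 and -1.34), while Oas1a (-0.15) and Oas2 (0.00) did not pass.

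Zbp1 read -2.11, -1.38 and -1.45 in untreated lung, against 0.75, 0.76 and 0.62 in untreated liver, and Mx2 read -1.49, -1.65 and -1.56, against 0.45, 0.48 and 0.47. The differences were -2.36 ± 0.22 and -2.03 ± 0.13, with no overlap. Bst2, whose difference was also -2.03, and Irf7, Stat2, Dhx58, Isg15 and Gbp6, between -1.76 and -1.20, were lower in lung as well.

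Among the members higher in lung, Isg20 read 3.52, 3.77 and 3.74 in untreated lung, against 0.63, 1.09 and 0.45 in untreated liver, a difference of 2.95 ± 0.17 or 7.75-fold. Gbp2 read 1.11, 1.31 and 1.79 in lung, against -1.24, -1.53 and -1.29 in liver, a difference of 2.75 ± 0.24. Ifit2 read -2.07, -1.79 and -1.30 in lung, against -3.97, -3.99 and -3.86 in liver, a difference of 2.22 ± 0.34. None of these groups overlapped, and within the families Gbp6 (-1.21) and Ifit1 (-0.33, not called) did not share the direction of Gbp2 and Ifit2. Xaf1, Ifit3, Irf1 and Gbp3 were higher in lung by 0.59 to 0.83. Mx1, Usp18, Herc6, Tap1, Tap2, Rsad2, Cmpk2, Parp14, Rtp4, Ifi44, Ifi35 and Irf9 did not pass.

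Genes that stand above the members in the pathway were read from lists. Of the interferons themselves, 15 of 17 on the array were tested in each tissue, with 13 positive acrylamide minus control differences in lung (median 0.09) and 8 in liver (median 0.05), and 0 passed the adjusted test. Ifnb1, interferon beta, read -8.44, -7.41 and -9.13 on lung acrylamide arrays, against -7.79, -9.39 and -9.32 on controls. In liver it read -8.28, -7.14 and -1.32 on acrylamide arrays, against -7.74, -6.41 and -7.36 on controls, so acrylamide 30 stood far above the other 11 arrays. Ifnb1 was above background on 6 of the 12 arrays, and its liver difference was 1.59 ± 1.78.

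Ifng, interferon gamma, differed by 0.27 ± 0.25 in lung and -0.29 ± 0.35 in liver. Ifnk, interferon kappa, and Ifna12, an interferon alpha, were among the 3 smallest p in liver, at -1.02 ± 0.17 (adjusted p = 0.644) and 0.63 ± 0.20. Ifng, Ifnk and Ifna12 were not above background on liver acrylamide 30. Ifnk read -5.48, -5.49 and -5.66 on liver acrylamide arrays, against -4.65, -4.24 and -4.70 on controls, so that its acrylamide arrays were lower with no overlap.

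Of 9 receptor and kinase genes, 8 had a negative difference in lung (median -0.11) and 4 in liver (median 0.00), and 0 passed the adjusted test. Ifnar1 differed by -0.07 in lung and -0.09 in liver, Ifnar2 by -0.12 and 0.00, and Ifngr1, a chain of the interferon gamma receptor, by -0.16 and -0.25. Between untreated tissues Ifnar2 was lower (-1.35 ± 0.13) and Ifngr1 higher (1.80 ± 0.18) in lung, both past the adjusted test. Of 20 signalling and feedback genes, 10 had a negative difference in each tissue, and 0 passed. Cgas, a DNA sensor, differed by 0.26 ± 0.10 in lung with separate groups.

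Of 53 other interferon-induced genes tested, 37 had a negative difference in lung (median -0.08) and 19 in liver (median 0.04). None passed the adjusted test, and 3 passed at an unadjusted p under 0.05 in lung, all negative, a share near the 4.92% of all genes. Ddx60, a helicase linked to RNA sensing, read -4.01, -3.83 and -3.82 on lung acrylamide arrays, against -3.21, -3.51 and -2.89 on controls (-0.68 ± 0.18, adjusted p = 0.941). Sp110, a nuclear body protein, read 5.70, 5.75 and 5.68 on lung acrylamide arrays, against 5.97, 6.03 and 5.96 on controls (-0.28 ± 0.08). The groups of both were separate. In liver Cxcl9, a chemokine induced by interferon gamma, read 1.23, 1.06 and 0.99 on acrylamide arrays, against 0.77, 0.39 and 0.28 on controls (0.61 ± 0.18, adjusted p = 0.779), also without overlap.

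A gene was represented by its brightest spot, and 19 members had more than 1 spot above background on at least 6 arrays. In lung all spots of 11 of these agreed in direction, and those of Ddx58, Ifi35, Irf7, Irgm1, Rsad2, Tap1, Tap2 and Trim30a did not. Oasl1 and Mx1 had 2 spots each, which agreed in direction in lung, and Cmpk2, Oas1d and Ifi44 had 1 spot each. The lung spots of Irf1 agreed in direction but not in size, at 0.07 and 0.74. In liver the spots of 10 members differed in direction, among them Irf1, Irf7, Stat2 and Tap1. Between the untreated tissues those of Ddx58, Ifi27, Tap2 and Trim30a did.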

How the data were processed

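RNA from lung and liver was measured on 12 one-colour Agilent arrays. Each deposited file lists 62976 spots with 1 linear intensity of the Cy3 dye. The submitters' processing notes name Agilent Feature Extraction 10.7, and the labels do not say whether background was subtracted. The authors' deposited series matrix holds the same intensity multiplied by 1 factor per array, which brings the 75th percentiles of the arrays close together.

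Control spots (3635, of which 2352 are spots of 84 accessions without a gene name, each repeated at least 20 times) were left out. The deposited intensity was taken to log2 and set relative to the 75th percentile of its array. Gene symbols came from a RefSeq table of GRCm38.p6 through the Entrez number (38054 spots) or the accession (715), 2242 more were named by the file alone, and 18330 had no name. The spot with the highest mean over all arrays stood for its gene. The background limit of an array was the 95th percentile over its 308 negative control spots, and genes above background on at least 3 arrays of a fit were tested.

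Arrays of each tissue were fitted by lmFit and eBayes of limma 3.58.1 under R 4.3.3, and the contrasts between tissues over all 12 arrays. P-values were Benjamini-Hochberg adjusted over all genes tested, with a threshold of 0.05. The fits were tested on simulated data. The labels do not say whether arrays of 1 group are separate animals. If they are not, p-values measure technical spread only, and 3 arrays per group limit the precision.

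Title numbers 4, 29 and 30 occur in both tissues. The deviations of same-numbered arrays from their group means correlated at 0.0122, -0.0211 and -0.156 over 23283 genes. These values cannot decide whether such arrays share an animal, since variation of array and tissue can hide it. The numbers were not taken as pairs in the main fits. The members and lists were chosen with earlier results of these data known. Members named with every array's value are Isg15, Mx1, Ifit1, Oas2, Irf7, Stat2, Usp18, Tap1, Gbp2 and Ddx58, the 5 with the smallest p in each tissue, and the 4 with the largest difference in each direction between untreated tissues. Of other interferon genes they are receptors, Ifnb1, Ifng and the 3 smallest p in each tissue, and 1 other gene that the rule takes is not reported here. Values of Trim30a, Herc6, Bst2, Rsad2 and Sftpc were singled out after they were seen. Alternatives were other scalings, the series matrix, other background filters, the mean of a gene's spots, an intensity trend, arrayWeights, the slide row or title number as a block, single slide rows, and leaving out each array.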

Additional observations from a re-analysis of the deposited data

Results flagged for a closer look

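Oas1d was noted because its 3 acrylamide arrays lay below every control in lung and above every control in liver. The acrylamide difference in lung minus that in liver was -1.24 log2 units (SE 0.22). The test of this difference in limma gave an adjusted p of 0.728 over 23283 genes. The value lay between -1.37 and -1.1 when any 1 array was left out. With array quality weights it was -1.18 with an adjusted p of 0.043. Within slide rows, the lung difference was -0.48 in row 1 and -0.03 in row 2, and the liver difference 1.0 and 0.77.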

How the results depend on the processing

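In lung, the median of the members ran from -0.21 to -0.10 when any 1 array was left out, reaching -0.10 without control 6, and was -0.10 within slide row 1. Ddx58 was -0.16 by the mean of spots, -0.04 by arrayWeights, -0.02 when slide rows were blocked and -0.04 within row 1, where Stat2 was 0.00, Usp18 -0.07 and Gbp2 0.02. With 1 array left out, Ddx58 ran from -0.05 to 0.14, Stat2 from -0.10 to 0.05, Usp18 from -0.16 to 0.27 and Gbp2 from -0.25 to 0.09. In liver, arrayWeights gave a median of 0.09 with 11 negative differences, and Isg15 at 0.05, Mx1 at 0.09, Ifit1 at 0.22 and Tap1 at -0.00. The median was -0.10 within row 1 and 0.34 within row 2, where 8 differences were negative and Isg15 was 0.39, Mx1 0.46, Ifit1 0.55, Irf7 0.08 and Tap1 -0.03. Tap1 was -0.01 under quantile and -0.00 under median scaling, and the mean of spots gave Irf7 0.11 and Ddx58 -0.03. With 1 liver array left out, the negative differences numbered 14 to 27 (14 without acrylamide 27 or control 3, 27 without acrylamide 29), Isg15 ran from -0.25 to 0.04, Mx1 from -0.37 to 0.03, Ifit1 from -0.47 to 0.11, Oas2 from -0.31 to 0.09, Irf7 from -0.19 to 0.12, Tap1 from -0.10 to 0.08 and Ddx58 from -0.07 to 0.11. Between untreated tissues the median was -0.03 under quantile and -0.12 under median scaling, and -0.36 to -0.26 with 1 array left out, while 22 to 28 members were called. For the lung minus liver difference of the acrylamide effect, arrayWeights gave 1 call (Oas1d, -1.18) and a median of -0.28, and leaving out 1 array gave -0.24 to -0.08, the -0.08 without liver acrylamide 29. With the title number as a replicate block, 26 members were called between untreated tissues (median -0.28) and 0 for the difference of the effects (median -0.19). The shares of all genes called under these alternatives are not given here, and the cause of these changes was not tested. The sign was kept under each alternative by 28 of 41 members in lung, 26 of them negative, by 16 in liver, and by 29 between untreated tissues. Liver acrylamide 30 was dim, which limits the low members there, and 3 arrays a group limit every call.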
